A study of Mus musculus with 20 samples.

Results

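The fertilization step was examined as the difference between G1 zygotes and MII eggs of the mouse strain C57BL/6J, with 3 samples in each group, 6 of the 20 samples of the series. The samples were chosen by their stage and strain labels, and the features were the 24411 gene symbols of the authors' deposited table for this comparison. All samples were labelled as untreated, and the labels name no genetic change. An MII egg is an unfertilized egg held in metaphase of the second meiotic division, and a G1 zygote is a fertilized egg whose pronuclei have yet to replicate their DNA. Each sample was a batch of 10 to 15 cells, matured in M16 medium for 12 hours after removal of dbcAMP, a drug that holds oocytes at prophase. Zygotes came from fertilization in vitro and were kept in KSOM medium at 5% oxygen and 5% carbon dioxide. RNA with a poly(A) tail was copied by the Smart-seq2 method from an oligo-dT primer, so the amount of an mRNA and the length of its tail cannot be told apart, nor can fewer cells in a batch and less RNA per cell. The age of the females was not stated, and no label says that the 3 samples of a stage had different mothers or collection days. The p-values therefore measure a spread between samples, possibly of all 4 C57BL/6J stages, which may be technical.

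A full-grown mouse oocyte has stopped transcribing its genome, and the egg lives on mRNA stored during growth. Stored mRNAs are held with short tails and lengthened or shortened on cue: the protein CPEB1 binds a cytoplasmic polyadenylation element (CPE) near the poly(A) signal, and the CCR4-NOT complex with its adaptor BTG4 removes tails. Sperm entry raises calcium, which ends the meiotic arrest held by MOS and by the APC/C inhibitor EMI2. The embryo's own genome becomes strongly active at the 2-cell stage.

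Few genes passed the test at this step. Of 13551 genes with an adjusted p from DESeq2's Wald test, 220 rose (1.62%) and 152 fell (1.12%) at an adjusted p under 0.05. Unless stated otherwise, the genes that follow are the 8300 tested ones whose mean normalized count was 100 or more over the 4 C57BL/6J stages, a mean that a gene can also reach through the later stages alone. Of these, 194 rose (2.34%) and 123 fell (1.48%), with median log2 fold changes of 1.86 and -2.12 (G1 zygote over MII egg, called log2 change from here on). The median over all 8300 was -0.07 and their median SE was 0.80, against 0.42 for the called genes. At the median SE a log2 change of 2.57 was needed to pass, and for 538 genes (6.48%) the SE would have let a change of 1 pass, so smaller changes were not detectable for most genes. Of the 372 calls, 88 had an approximate level under 1 in at least 1 of the stages, and their folds are not given here. Among the genes with a mean of at least 100, 173 that rose and 90 that fell had a level of at least 10 in both stages.

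The levels given per stage are approximate means. They were worked out by sharing each gene's mean count over MII eggs, G1 zygotes, G2 zygotes and 2-cell embryos by the fold changes of the authors' deposited table, and they carry no SD because the table holds no values per sample. Whether the samples of both stages overlap for a gene can therefore not be seen. Depth per sample is unknown. All 12 oocyte identity markers (such as Zp3, Gdf9 and Ooep) had a mean of at least 100, while 8 of 18 cumulus and granulosa markers and 7 of 20 sperm and testis markers had a mean of 0. The summed level of the cumulus markers was 1711 in MII eggs and 1129 in G1 zygotes, most of it Cyp19a1, at 1597 and 1050.2. The defining cumulus genes Has2 and Tnfaip6 had means of 5.38 and 3.56, and Amh, Inha, Inhba and Ptx3 were at 0. Higher on the same list were Amhr2, Kitl, Col4a1 and Fshr, with means of 71.7, 44.9, 15.5 and 7.77. The part of cumulus RNA in the results was not tested. Of the 2 sperm and testis markers and 2 blood, immune or oviduct markers tested above a mean of 100, 0 passed and 0 had an unadjusted p under 0.05. The blood marker Hba-a1, a globin gene, also had a mean above 100 but no p: its level was 3.05 in eggs, under 1 in G1 zygotes and 3827 in 2-cell embryos. Below a mean of 100 the testis marker Meig1 (mean 24.4) fell to a level under 1 in G1 zygotes, with an adjusted p of 0.018 by DESeq2's test. With each SE raised 1.5 times Meig1 was no longer called. Symbols of near-identical copies (calmodulins, ribosomal proteins, histone variants, and the Nlrp, Khdc1 and Obox families) are uncertain, since reads can be split between copies.

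**Figure D1:**
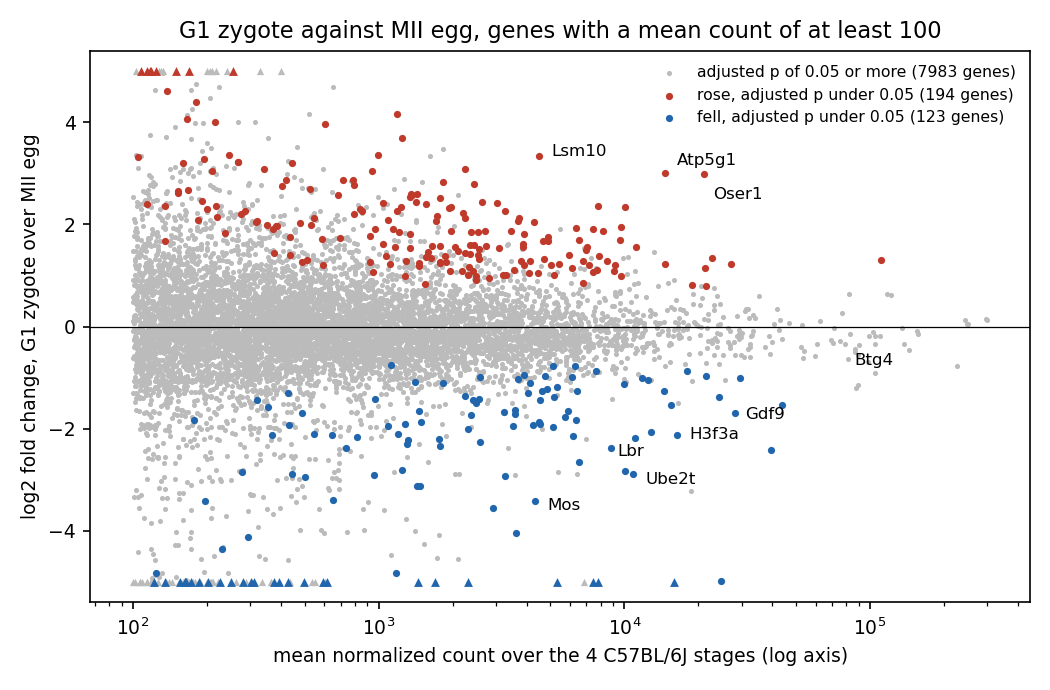
Each point is a tested gene whose mean normalized count was 100 or more: the x axis gives the mean over the 4 C57BL/6J stages on a log axis and the y axis the log2 fold change of G1 zygotes over MII eggs from the authors' deposited table. The 194 genes that rose are red, the 123 that fell are blue, the others are grey, and triangles at the edges stand for values beyond the axis. The spread of the grey points narrows toward higher means, where Btg4 sits near 0.

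The ends of some of the mRNAs that moved are shown first, because a CPE and a poly(A) signal are the elements by which tails are known to be regulated in eggs. The windows hold 30 bases of the annotated 3' UTR of the longest coding transcript (GENCODE M21, GRCm38), written 5' to 3' on the mRNA strand as DNA letters. Capitals mark a CPE (TTTTAT or TTTTAAT) and a poly(A) signal (AATAAA or ATTAAA). The first 3 genes fell and hold a CPE. The last 4 rose and hold a poly(A) signal with no CPE in the last 150 bases. They were chosen after their values were seen and do not stand for all called genes. In those 150 bases a CPE was found in 25.2% of genes that fell, near the 26.8% of all genes, and in 14.2% of those that rose.
Gdf9: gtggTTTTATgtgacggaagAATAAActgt
Ube2t: aaggatagtttgTTTTATttatcttgtaca
Lbr: gtgcaagttgtTTTTAATttgatgtttggc
Sh3bgrl3: gccctagagacaATTAAAtgtccattcctc
Atp5g1: tttcatataataAATAAAttttttaaaaaa
Cox4i1: atggtccatgctAATAAAagaccagtttac
Vamp8: tggctggtgggcAATAAAgacctcttggta
In Gdf9 (chr11:53437862-53437891, plus strand) the CPE and the poly(A) signal fit in the same window, starting 39 and 23 bases from the annotated end. In Ube2t (chr1:134974081-134974110, plus strand) the CPE starts 70 bases from the end and a poly(A) signal 22 bases from it. Lbr (chr1:181815382-181815411, minus strand) carries the longer form of the element, 66 bases from the end. The other windows are those of Sh3bgrl3 (chr4:134127415-134127444, minus strand), Atp5g1 (chr11:96068861-96068890, minus strand), Cox4i1 (chr8:120674174-120674203, plus strand) and Vamp8 (chr6:72385235-72385264, minus strand).

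Of the elements searched on the mRNA strand in the last 150 bases, the CPE was found in 26.8% of the 7509 tested genes whose 3' UTR could be read, in 24 of 169 genes that rose (14.2%) and in 28 of 111 genes that fell (25.2%). The share among genes that fell was therefore near that of all genes, and the share among genes that rose was lower. Called genes had shorter transcripts, with medians of 1703 nt (rose) and 1559 nt (fell) against 3069 nt for all. Of the genes in the quintile of the shortest transcripts 20.1% held a CPE. The part of length in these shares was not tested. A poly(A) signal was found in 84.5% of all, 77.5% of those that rose and 82.9% of those that fell. The Pumilio element (TGTA, any base, ATA) was in 7.03% of all, 5.33% of those that rose and 5.41% of those that fell, and the AU-rich letters TATTTAT in 6.22%, 3.55% and 7.21%. Across all genes, called or not, the median log2 fold change was -0.20 for the 2009 genes with a CPE and -0.02 for the 5500 without. The median with a CPE was the lower in each quintile of the genes by transcript length, 3' UTR length, GC content and mean count, with differences from -0.07 (longest transcripts) to -0.44 (highest GC). These values describe letters in an annotated window, not sites in use.

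Among the kinases and cyclins of the egg's arrest, 2 of 26 members fell (7.69%) and 0 rose, against 1.48% and 2.34% of all genes. The list's median was -0.17, and 1 member above 0 had an unadjusted p under 0.05. Its median SE was 0.56, against 0.80 over all genes, and the part of this in the counts was not tested. Mos, the kinase that keeps the MAP kinase pathway active in the arrested egg, had an approximate level of 15632 in MII eggs and 1458 in G1 zygotes, and went on to 171 in G2 zygotes and 44.6 in 2-cell embryos. This step gave a log2 change of -3.42 (SE 0.97, adjusted p = 0.019) per the authors' deposited table. The other gene that fell, the CDK1-inhibiting kinase Wee1, went from a level of 14.1 to under 1 in G1 zygotes. Its mean of 185 came mostly from the later stages, without which it would not be among the genes counted here. The other regulators of the arrest did not pass. Cyclin B1 (Ccnb1), the partner of CDK1, had levels of 158531 in eggs and 83943 in zygotes, with a log2 change of -0.92 (SE 0.48, adjusted p = 0.59) per the authors' deposited table. Fbxo43, which encodes EMI2, had a log2 change of -0.78 (SE 1.03, adjusted p = 1.0), and the oocyte kinase Wee2 a log2 change of -0.31 (SE 0.56, adjusted p = 1.0) per the authors' deposited table. Of 23 spindle and segregation genes 1 fell (4.35%) and 0 rose (1 above 0 had an unadjusted p under 0.05). It was Ube2c, the ubiquitin-conjugating enzyme of the APC/C, going from 4171 to 1800.3 with a log2 change of -1.21 (SE 0.32, adjusted p = 0.0087) per the authors' deposited table. Anapc13, a subunit of the APC/C itself, fell too, with a log2 change of -2.88 (SE 0.51, adjusted p = 3.1e-06) per the authors' deposited table.

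Of 13 calcium and activation genes 0 rose, and 0 above 0 had an unadjusted p under 0.05. The list had 1 gene that fell (7.69%, against 1.48% of all genes). That gene was Calm2, which encodes calmodulin, the calcium sensor, from a level of 14479.6 to 5002 with a log2 change of -1.53 (SE 0.24, adjusted p = 4.7e-08) per the authors' deposited table. The receptor that releases calcium from stores, Itpr1, had a log2 change of -0.17 (SE 0.68, adjusted p = 1.0) per the authors' deposited table. Of 8 tested genes for cortical granule release with a mean of at least 100, 0 passed DESeq2's test and 0 had an unadjusted p under 0.05. Their median SE was 1.09. Below that mean Rab27b (mean 17.2) fell to a level under 1 in G1 zygotes, with an adjusted p of 2.6e-04 by DESeq2's test. With each SE raised 1.5 times Rab27b was no longer called.

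Genes for the egg coat and sperm contact had a median of -0.93, the lowest of the 37 lists, and 9 of 11 members were below 0. The test passed 1 of them, a fall (9.09%, against 1.48% of all genes), and 3 that were below 0 had an unadjusted p under 0.05. Zp3, a structural protein of the zona pellucida, went from a level of 4386 to 2220.1 with a log2 change of -0.98 (SE 0.29, adjusted p = 0.03) per the authors' deposited table; with all changes recentred by 0.12 its adjusted p was 0.087. Zp1 (log2 change -0.53, SE 1.5), Zp2 (log2 change -1.14, SE 0.77), the sperm receptor gene Izumo1r (log2 change 0.34, SE 0.52) and the membrane protein gene Cd9 (log2 change -1.08, SE 0.47) did not pass per the authors' deposited table. Astl, the protease released at fertilization that cuts ZP2, had levels of 2230.3 and 312, and its wide error left a log2 change of -2.84 (SE 1.29, adjusted p = 0.39) per the authors' deposited table.

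Gdf9 and Bmp15, growth factors that act as partners in the ovary, both fell. Gdf9 (chromosome 11, 53431023 to 53437904, plus strand), a TGF-beta family ligand that the oocyte sends to the follicle, had levels of 83545, 25963, 2958 and 392 over the 4 stages. This step gave a log2 change of -1.69 (SE 0.46, adjusted p = 0.013) per the authors' deposited table. Bmp15 (chromosome X, 6314107 to 6320721, minus strand) had levels of 38204, 19601, 26506 and 1640.1, with a log2 change of -0.96 (SE 0.22, adjusted p = 0.0012) per the authors' deposited table. Bmp15 was thus no lower in G2 than in G1 zygotes, unlike Gdf9. Plat, a plasminogen activator whose mRNA is stored in oocytes, went from a level of 32035 to 7102 with a log2 change of -2.17 (SE 0.65, adjusted p = 0.035) per the authors' deposited table; its adjusted p was 0.056 after recentring. Of 22 oocyte growth and transcription factor genes these 3 fell (13.6%) and 0 rose, against 1.48% and 2.34% of all genes. The list's median SE was 0.56, against 0.80 over all genes, and the part of this in the counts was not tested. A further 3 members above 0 had an unadjusted p under 0.05. Among those 3 was the growth factor gene Fgf8, at 56.1 in eggs and 255 in zygotes, which did not pass with a log2 change of 2.19 (SE 0.79, adjusted p = 0.14) per the authors' deposited table. Bmp6, for another ligand of the TGF-beta family (log2 change 0.63, SE 1.37), did not pass either per the authors' deposited table. H1foo, the oocyte linker histone, fell short of the threshold with a log2 change of -1.21 (SE 0.62, adjusted p = 0.57) per the authors' deposited table, from 236282 to 102123.

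In the subcortical maternal complex and related families, 3 of 18 genes fell (16.7%) and 1 rose (5.56%), against 1.48% and 2.34% of all genes. The list's median SE was 0.59, against 0.80 over all genes, and the part of this in the counts was not tested. Nlrp5, which encodes the complex member MATER, went from a level of 11013 to 3233 and stood at 7713 in G2 zygotes, with a log2 change of -1.77 (SE 0.50, adjusted p = 0.021) at this step per the authors' deposited table. Tle6 (log2 change -1.09, SE 0.27) and Nlrp14 (log2 change -1.54, SE 0.44) also fell per the authors' deposited table. The partners Ooep (log2 change 0.22, SE 0.64) and Padi6 (log2 change -0.13, SE 0.74) did not pass per the authors' deposited table. Khdc1c, of a KH-domain family, rose from a level of 56.5 to 235 with a log2 change of 2.06 (SE 0.62, adjusted p = 0.034) per the authors' deposited table. Of the 12 oocyte identity markers 4 fell (33.3%, against 1.48% of all genes): Nlrp5, Gdf9, Bmp15 and Zp3. These 4 also stand on the lists above. Of the 12, 0 rose and 0 above 0 had an unadjusted p under 0.05, at a median SE of 0.48.

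**Figure D2:**
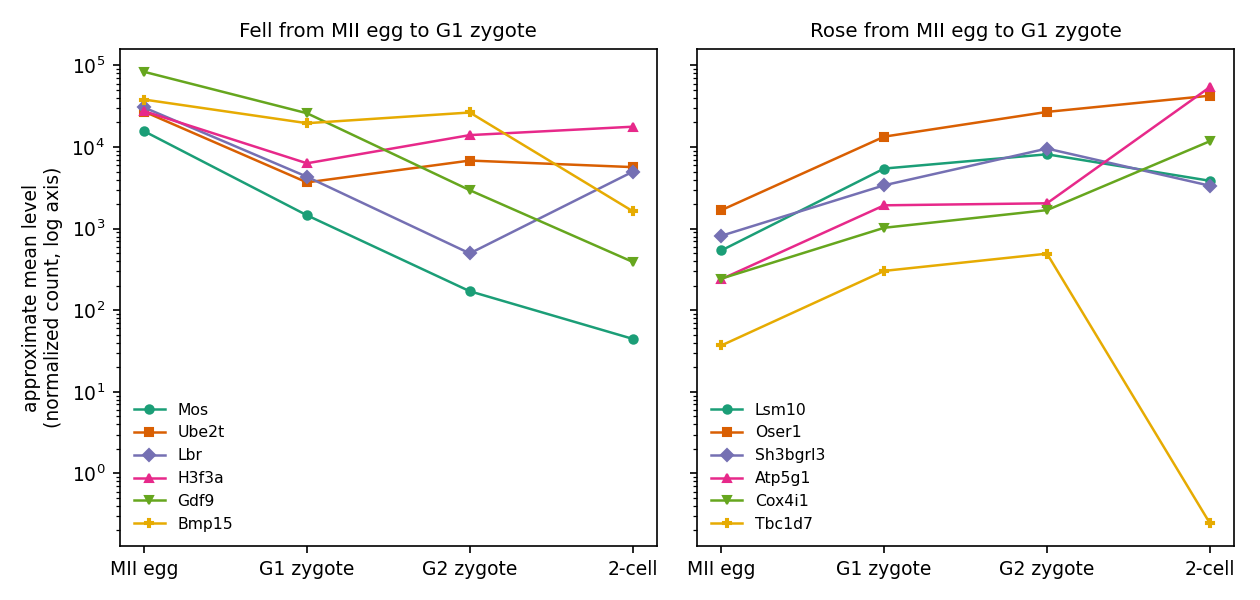
Approximate mean level, in normalized counts on a log axis, of 6 genes that fell (left) and 6 that rose (right) at the G1 step, over the 4 C57BL/6J stages; no error bars can be given. Mos and Gdf9 go on down after the G1 zygote, H3f3a and Ube2t stand higher in G2 than in G1 zygotes, and Tbc1d7 is under 1 in 2-cell embryos.

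Of the genes whose products control tails, Cnot1 passed. Of 29 deadenylation and decay genes 1 rose (3.45%) and 0 fell (1 below 0 had an unadjusted p under 0.05), and of 30 translation control genes 0 rose and 0 fell by DESeq2's adjusted p (1 above and 1 below 0 had an unadjusted p under 0.05), against 2.34% and 1.48% of all genes. The median SE of these lists was 0.72 and 0.68, so smaller changes were not detectable in many of their members. Cnot1, the scaffold of CCR4-NOT, rose from a level of 81.9 to 440.1 and reached 1443 in G2 zygotes, with a log2 change of 2.43 (SE 0.33, adjusted p = 1.2e-10) at this step per the authors' deposited table. The adaptor Btg4 was among the most abundant mRNAs of both stages, with levels of 171362 and 151508 and a log2 change of -0.18 (SE 0.27, adjusted p = 1.0) per the authors' deposited table. The deadenylases Cnot7 (log2 change 0.01, SE 0.36) and Cnot6l (log2 change -0.89, SE 0.33) did not pass per the authors' deposited table. Nor did Zar1 (log2 change -0.20, SE 0.97), Dazl (log2 change -0.27, SE 0.42) or Ybx2 (log2 change 0.34, SE 1.17), which encode RNA-binding proteins of stored mRNA, per the authors' deposited table. Cpeb1 had a log2 change of -0.17 with SE 1.43 and no p per the authors' deposited table. Of 17 mRNAs known to be stored or tail-regulated, 3 fell (17.6%, against 1.48% of all genes): Mos, Gdf9 and Plat. Of the 17, 14 were below 0, with a median of -0.27 against -0.07 over all genes. Recentring moved the list's median to -0.15. Its median SE was 0.46, against 0.80 over all genes, and the part of this in the count was not tested. Slbp, a member of that list which encodes the stem-loop binding protein of histone mRNA, had a log2 change of -0.56 (SE 0.29, adjusted p = 0.61) per the authors' deposited table, and its level was 164657 in eggs and 111938 in zygotes.

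Lsm10 (chromosome 4, 126096623 to 126098584, plus strand) made the clearest rise among genes of histone supply. It encodes a subunit of the U7 particle that cuts histone pre-mRNA, and it went from a level of 540.3 in eggs to 5449 in G1 zygotes, 8149 in G2 zygotes and 3860.0 in 2-cell embryos. With a log2 change of 3.33 (SE 0.30, adjusted p = 1.4e-24) per the authors' deposited table, it was the 1 of 16 histone processing genes that passed. That is 6.25% that rose, against 2.34% of all genes. Among 23 histone variant and chaperone genes 1 rose (4.35%) and 1 fell (4.35%), against 2.34% and 1.48% of all genes. The list's median SE was 0.36, against 0.80 over all genes, and the part of this in the counts was not tested. H3f3a fell and H2afv rose. H3f3a (chromosome 1, 180800832 to 180813943, minus strand), which encodes a replacement variant of histone H3, went from a level of 27545 to 6323 with a log2 change of -2.12 (SE 0.17, adjusted p = 1.8e-33) per the authors' deposited table. H2afv, which encodes a variant of H2A, went from a level of 276 to 973 with a log2 change of 1.82 (SE 0.30, adjusted p = 3.1e-07) per the authors' deposited table. The histone chaperone gene Npm2 had a log2 change of -0.12 (SE 0.28, adjusted p = 1.0) per the authors' deposited table.

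Of 29 genes for DNA methylation and chromatin reprogramming 1 rose (3.45%) and 0 fell, against 2.34% and 1.48% of all genes. Below 0, 1 member had an unadjusted p under 0.05. The lists of this paragraph hold few called members, which are given as single genes. The gene that rose was Zfp57, a zinc finger gene that protects imprinted methylation. Its level was 2149 in eggs, 6364 in G1 zygotes and 6368 in G2 zygotes, with a log2 change of 1.57 (SE 0.31, adjusted p = 7.9e-05) at this step per the authors' deposited table. Tet3, which oxidises paternal methylation (log2 change -0.27, SE 0.32), Dnmt1 (log2 change -0.22, SE 0.37) and Dppa3 (log2 change 0.13, SE 0.16) did not pass per the authors' deposited table. Dppa3 was among the most abundant mRNAs, at 227932 and 250274. Of 39 replication genes 1 rose (2.56%, near the share of all genes) and 0 fell (2 below 0 had an unadjusted p under 0.05). It was Gins1, a part of the replicative helicase, from 171 to 643 with a log2 change of 1.91 (SE 0.41, adjusted p = 3.1e-04) per the authors' deposited table. Of 25 transcription factors linked to genome activation 1 fell (4%) and 0 rose (1 above 0 had an unadjusted p under 0.05). It was Obox6, from 20.8 to 3.32, before 26179 in 2-cell embryos. The log2 change of Obox6 was -2.64 (SE 0.77, adjusted p = 0.026) per the authors' deposited table. Its mean of 6554 came mostly from the later stages, without which it would not be among the genes counted here. Nr5a2, the nuclear receptor named in the title of the series, had levels of 182 and 142 with a log2 change of -0.36 (SE 0.56, adjusted p = 1.0) per the authors' deposited table, and the abundant homeobox gene Obox5 had a log2 change of -0.19 (SE 0.33, adjusted p = 1.0) per the authors' deposited table. Of 18 genes typical of the 2-cell stage 1 rose (5.56%) and 0 fell (0 below 0 had an unadjusted p under 0.05). It was Arg2, a mitochondrial arginase, from a level of 139 to 986 with a log2 change of 2.83 (SE 0.53, adjusted p = 1.9e-05) per the authors' deposited table.

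Several of the steepest falls were of genes outside the maternal lists. Ube2t (chromosome 1, 134962565 to 134974162, plus strand), the ubiquitin-conjugating enzyme of the Fanconi anaemia pathway, had the smallest adjusted p of all genes with a mean of at least 100. It went from a level of 27179 to 3687, with a log2 change of -2.88 (SE 0.17, adjusted p = 5.6e-62) per the authors' deposited table, and stood at 6828 and 5677 in the later stages. Lbr (chromosome 1, 181815335 to 181843046, minus strand), the lamin B receptor of the inner nuclear membrane, had levels of 30531, 4326, 497 and 4974 over the 4 stages, with a log2 change of -2.82 (SE 0.30, adjusted p = 5.2e-18) per the authors' deposited table. Mis18a, a licensing factor of centromeric chromatin, went from a level of 2880.3 to 331 with a log2 change of -3.12 (SE 0.43, adjusted p = 4.0e-10) per the authors' deposited table. Polr2d, a subunit of RNA polymerase II, went from a level of 24103 to 5739.9 with a log2 change of -2.07 (SE 0.24, adjusted p = 5.6e-15) per the authors' deposited table. The others were of varied function: Cnih4, an export factor of the endoplasmic reticulum (log2 change -2.14, SE 0.28), the lysosomal enzyme gene Idua (log2 change -3.40, SE 0.73), the ubiquitin ligase gene Rnf130 (log2 change -2.95, SE 0.58) and Yipf1 (log2 change -2.15, SE 0.22) all fell per the authors' deposited table. Ppp1r15b, the phosphatase subunit that removes the phosphate of eIF2, had the largest fall among genes with a level of at least 10 in both stages, a log2 change of -4.11 (SE 0.87, adjusted p = 2.2e-04) per the authors' deposited table. It went from a level of 410.3 to 23.7 and stood at 166 in G2 zygotes. Nfkbiz (log2 change -3.40, SE 0.80), Spink2 (log2 change -2.85, SE 0.88) and the meiotic crossover gene Ccnb1ip1 (log2 change -2.91, SE 0.86) completed this set per the authors' deposited table. Spink2 had an adjusted p of 0.063 after recentring.

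The genes that rose most were mostly of low level in the egg. Lyrm1 went from a level of 17.5 to 275 with a log2 change of 3.97 (SE 0.86, adjusted p = 3.6e-04) per the authors' deposited table, the largest rise among genes with a level of at least 10 in both stages. Tspan31 (12.0 to 123), the ER membrane protein gene Lrrc59 (33.2 to 304), the minor spliceosome gene Zmat5 (27.1 to 231) and the creatine kinase gene Ckb (13.7 to 99.9) also began low. So did Bax, a promoter of apoptosis, at 23.1 and then 196, with a log2 change of 3.08 (SE 0.62, adjusted p = 9.2e-05) per the authors' deposited table. Oser1 (chromosome 2, 163405822 to 163424697, minus strand), named for its response to oxidative stress, had the highest mean count of the 15 largest rises. It went from a level of 1685 to 13411 and on to 26952 and 42575, with a log2 change of 2.99 (SE 0.38, adjusted p = 4.6e-12) at this step per the authors' deposited table. Sh3bgrl3, which encodes a small thioredoxin-like protein, had levels of 818, 3399, 9580.1 and 3359, with a log2 change of 2.06 (SE 0.17, adjusted p = 8.6e-31) per the authors' deposited table. Other genes that rose were the SNARE genes Vamp8 (log2 change 2.32, SE 0.28) and Stx8 (log2 change 3.04, SE 0.51) and the COPII coat GTPase gene Sar1b (log2 change 2.80, SE 0.43) per the authors' deposited table. The elongation factor gene Elof1 (log2 change 2.26, SE 0.29) and the oligosaccharyltransferase subunit gene Ost4 (log2 change 1.70, SE 0.20) rose as well per the authors' deposited table.

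Ribosomal protein genes included some that rose and some that fell. Of 48 genes of the large cytosolic subunit 3 rose (6.25%) and 6 fell (12.5%), and of 33 of the small subunit 1 rose (3.03%) and 2 fell (6.06%), against 2.34% and 1.48% of all genes, with medians of -0.01 and -0.08 that become 0.11 and 0.04 after recentring. The ribosomal stalk gene Rplp1 went from a level of 2119.7 to 444 and Rpl41 from 5866 to 1093. Rps26 fell as well, with a log2 change of -1.92 (SE 0.31, adjusted p = 1.8e-07) per the authors' deposited table. Rpl17 (log2 change 0.98), Rpl28 (1.45) and Rpl36al (1.21), named after their values were seen, were the 3 that rose in the large subunit per the authors' deposited table. The median SE was 0.42 in the large and 0.40 in the small subunit, against 0.80 over all genes, and the part of this in the counts was not tested. In the mitochondrial ribosome 6 of 75 genes rose (8%) and 1 fell (1.33%, near the share of all genes), beside a median of 0.25. The median SE of this list was 0.58, and its part in the counts was not tested. Mrpl33 (23.6 to 173), Mrps21 (541 to 1637) and Mrpl55 (69.0 to 300.2) rose, and Mrpl22 fell from 1504 to 391.

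Of 34 genes of respiratory complex I, which passes electrons from NADH to ubiquinone, 4 rose (11.8%) and 6 fell (17.6%), against 2.34% and 1.48% of all genes. Ndufb7 went from a level of 20.6 to 268 with a log2 change of 3.70 (SE 0.70, adjusted p = 2.4e-05), and Ndufa9 from 93.4 to 389 with a log2 change of 2.06 (SE 0.40, adjusted p = 3.8e-05) per the authors' deposited table. In the other direction Ndufa1 went from a level of 7104 to 1830.2 with a log2 change of -1.96 (SE 0.30, adjusted p = 2.3e-08), and Ndufa11 from 2695 to 739 with a log2 change of -1.87 (SE 0.34, adjusted p = 5.7e-06) per the authors' deposited table. The list's median SE was 0.47, against 0.80 over all genes, so its members could pass with smaller changes, and the part of this in the counts was not tested. Of 14 genes of complexes II and III 1 fell (7.14%) and 0 rose (1 above 0 had an unadjusted p under 0.05). It was Uqcr11, a small subunit of complex III, which went from a level of 6225 to 824 with a log2 change of -2.92 (SE 0.34, adjusted p = 2.8e-14) per the authors' deposited table. In complex IV, cytochrome c oxidase, 3 of 14 genes rose (21.4%) and 1 fell (7.14%). Those that rose were Cox4i1, Cox5a and Cox5b, and Cox6a1 fell. Cox4i1 had levels of 244, 1025, 1687 and 11779.8 over the 4 stages, and Cox6a1 had levels of 5188, 1383, 1957 and 9589, so both were at their highest in 2-cell embryos. Of 18 ATP synthase genes 3 rose (16.7%) and 0 fell (1 below 0 had an unadjusted p under 0.05), and the median was 0.31. The median SE was 0.37 in complex IV and 0.42 in the ATP synthase, against 0.80 over all genes. The part of this in the counts was not tested. Atp5g1 (chromosome 11, 96068852 to 96075670, minus strand), for the ring that turns in the membrane, went from a level of 240.5 to 1932, Atp5j2 from 231 to 1008 and Atp5a1 from 500.0 to 1188.

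**Figure D3:**
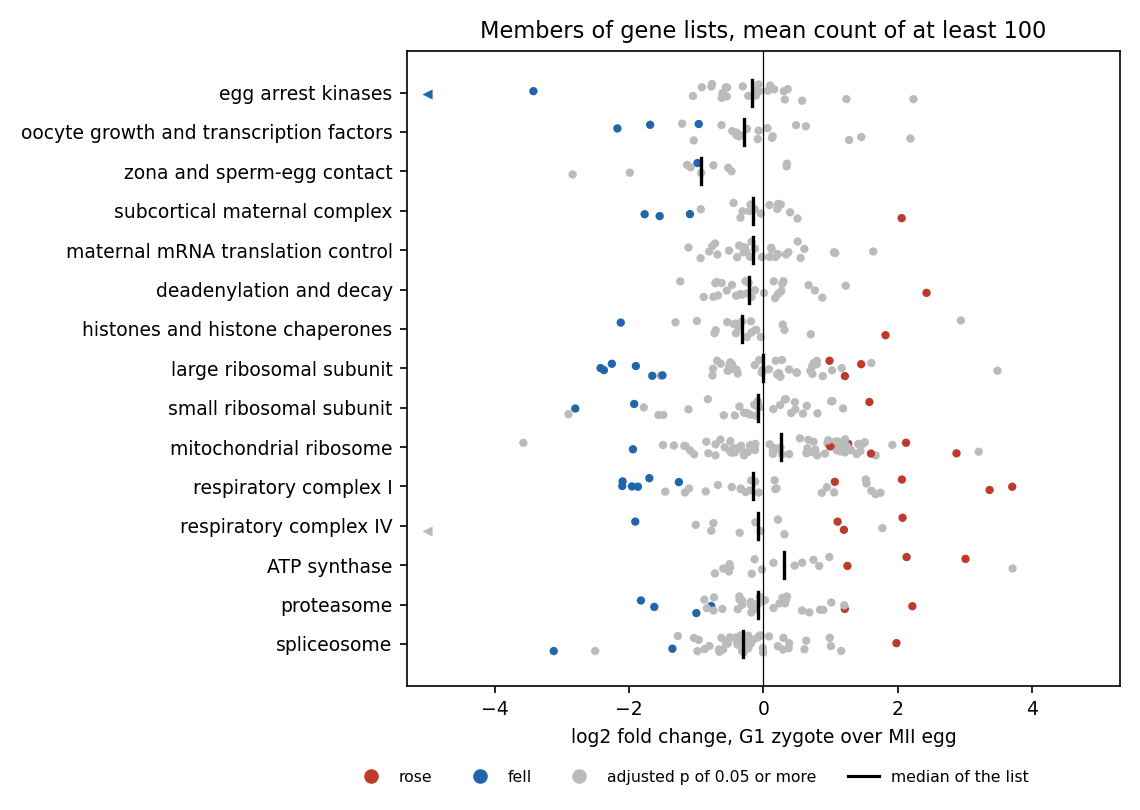
Log2 fold change of G1 zygotes over MII eggs from the authors' deposited table for the tested members, with a mean count of at least 100, of 15 gene lists; red points rose, blue points fell, grey points did not pass, black bars are medians, and triangles at the edge stand for values beyond the axis. Called members of ribosomes, complex I, complex IV and the proteasome lie on both sides of 0, and the medians of both ribosomal subunits, complex IV and the proteasome change sign when all changes are recentred by 0.12.

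Of 37 proteasome genes 2 rose (5.41%) and 4 fell (10.8%), with a median SE of 0.39. Over all genes the shares were 2.34% and 1.48%; the lists that follow hold few called members, which are given as single genes. Psma5 (8226 to 2325), Shfm1 (5626 to 1825) and Psma2 (50713 to 25383) were lower in zygotes, and Psma6 (810.3 to 1874) was higher. Of 42 ubiquitin ligase genes 2 rose (4.76%) and 1 fell (2.38%). Fbxw15, of an F-box family expressed in oocytes, rose from a level of 11641 to 29335 with a log2 change of 1.33 (SE 0.29, adjusted p = 5.4e-04), and Dcaf13, a receptor of a CUL4 ligase, with a log2 change of 1.68 (SE 0.40, adjusted p = 0.002) per the authors' deposited table. Of 45 translation factors 3 rose and 3 fell. Eif2s1, the subunit of eIF2 that stress kinases phosphorylate, rose from a level of 1089 to 3188 with a log2 change of 1.55 (SE 0.34, adjusted p = 5.4e-04) per the authors' deposited table. Eef1d (log2 change 2.55, SE 0.64) rose while Eif3k (log2 change -1.42, SE 0.38) and Eef1e1 (log2 change -1.27, SE 0.31) fell per the authors' deposited table. Among 50 splicing genes Snrnp200 (log2 change 1.98, SE 0.51) rose and Lsm6 (log2 change -1.35, SE 0.34) and Cdc5l (log2 change -3.12, SE 0.78) fell per the authors' deposited table. Of 35 cytoskeleton genes Pfn1 (log2 change 1.28, SE 0.23), Cfl2 (log2 change 1.08, SE 0.27) and Tubb4b (log2 change 1.26, SE 0.35) rose and Myl6 (log2 change -0.77, SE 0.24) fell per the authors' deposited table, the last with an adjusted p of 0.15 after recentring. Of 31 chaperone genes 2 rose and 1 fell: the chaperonin gene Cct3 (log2 change 1.25, SE 0.36) and Pfdn6 (log2 change 2.42, SE 0.72) rose per the authors' deposited table, and Cct6a, at 2.61 in eggs, was under 1 in zygotes. The mean of Cct6a, 302, came mostly from the later stages. Of 26 mitochondrial import genes Timm13 (log2 change 1.61, SE 0.42) rose and Tomm6 (log2 change -1.10, SE 0.31) fell per the authors' deposited table, and Tomm6 had an adjusted p of 0.053 after recentring. Of 27 antioxidant genes 0 rose and 0 fell by DESeq2's adjusted p, while 2 above and 2 below 0 had an unadjusted p under 0.05. Of 27 genes of glycolysis and the citric acid cycle 0 rose (2 above 0 had an unadjusted p under 0.05) and 1 fell, the enolase gene Eno1b, which went from a level of 60.9 to under 1. The mean of Eno1b, 163, came mostly from the later stages. Of 17 stress response genes Bax rose and Ppp1r15b fell. Actb (log2 change -0.22, SE 0.70) and Gapdh (log2 change -0.20, SE 0.63), often used as references, did not pass per the authors' deposited table.

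Calls were more frequent among short transcripts. In the quintile of the shortest transcripts (254 to 1670 nt, taking the longest coding transcript of each gene) 82 of 1502 rose (5.46%) and 61 fell (4.06%), and in the longest quintile 11 rose (0.732%) and 4 fell (0.266%). Genes that rose and genes that fell had like median lengths, 1703 and 1559 nt, against 3069 nt for all, and median 3' UTRs of 446 and 393 nt against 1132 nt. Their median GC contents were 49.5% and 50.5%, against 48.0%. The median change of the shortest quintile was -0.05, and those of the others ran from -0.10 to -0.04. Its median SE was 0.70, against 0.80 to 0.83 in the others. Calls were also more frequent at high level: in the quintile of highest mean count 4.66% rose and 3.86% fell, where the median SE was 0.39. The part of error and of level in the relation to length was not tested.

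**Figure D4:**
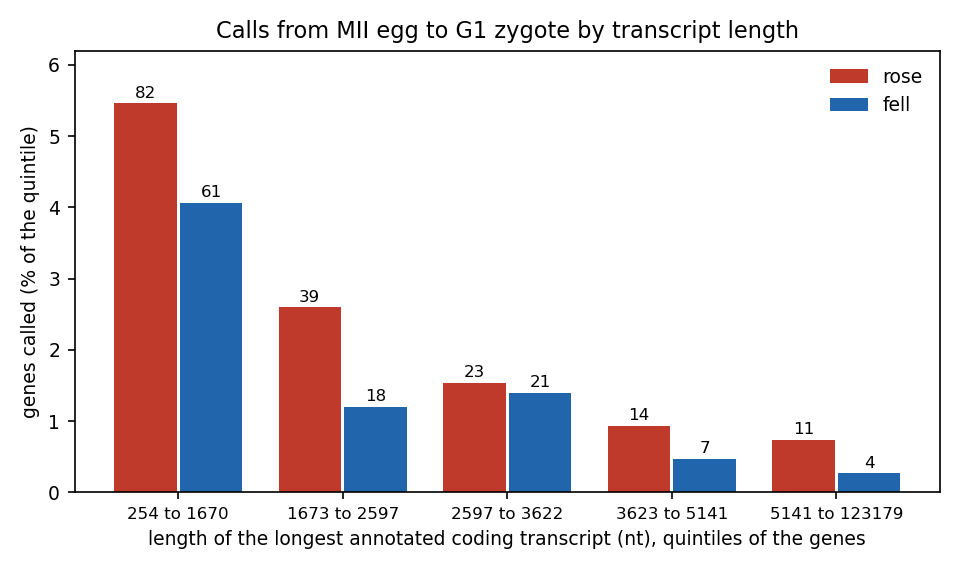
Bars give the percent of genes that rose (red) or fell (blue) from MII egg to G1 zygote in each quintile of the 7509 matched genes by length of the longest annotated coding transcript, with the number of genes on each bar. Both shares fall from the shortest to the longest quintile, from 5.46% to 0.732% and from 4.06% to 0.266%, apart from genes that fell in the third quintile (21 genes against 18 in the second).

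The later course was followed in the next but one comparison, 2-cell embryos against G2 zygotes, which shares no sample with this step. Each gene had the same mean count in both comparisons, so the authors may have fitted all stages together. The calls of both steps may therefore not be independent. Of the same 8300 genes, 30.5% rose and 25.5% fell there. Of the 194 genes that rose at the G1 step, 77 rose again (39.7%) and 61 fell (31.4%). Of the 123 that fell at the G1 step, 86 rose (69.9%) and 17 fell (13.8%), with a median log2 fold change of 2.24 against 0.23 for all genes. Restricted to the 90 that fell with a level of at least 10 in both early stages, 55 rose (61.1%) and 17 fell (18.9%). The early calls had smaller errors at the 2-cell step (median SE 0.40 for those that rose and 0.47 for those that fell, against 0.87), and a gene low in zygotes reached the mean of 100 more easily when its 2-cell level was high. The part of both in these shares was not tested, also not in the restricted set. The contrast with all genes is therefore given without a conclusion on the later course.

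**Figure D5:**
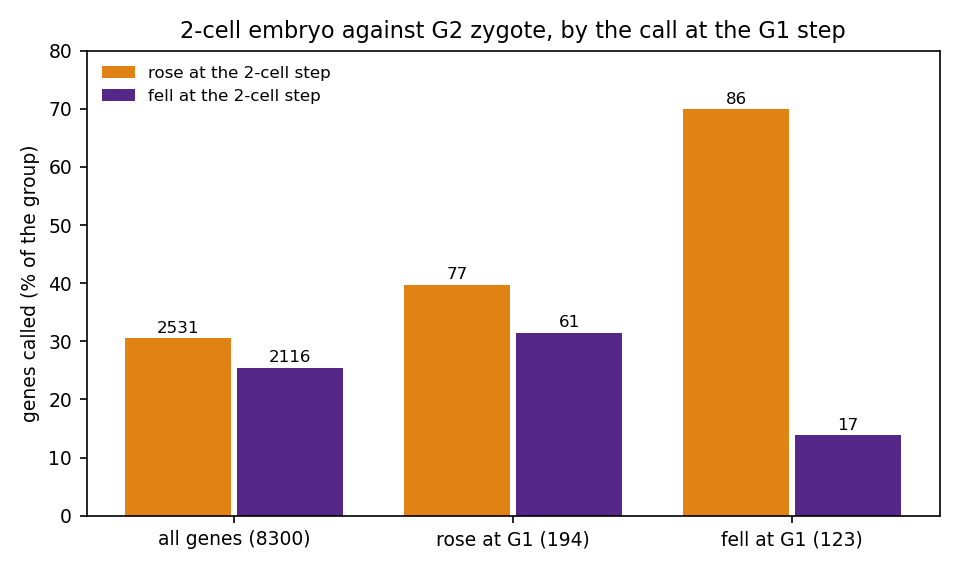
Bars give the percent of genes that rose (orange) or fell (purple) from G2 zygote to 2-cell embryo, for all 8300 tested genes, the 194 that rose and the 123 that fell at the G1 step, with the number of genes on each bar. Among genes that fell at the G1 step 69.9% rose later, against 30.5% of all genes. Of the 90 of them with a level of at least 10 in both early stages, 61.1% rose later. A gene low in zygotes passed the cut on mean count more easily when its 2-cell level was high. The part of this in the contrast was not tested.

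The genes that fell held different courses. Rpl41 went from a level of 5866 in eggs and 1093 in G1 zygotes to 150019 in 2-cell embryos, and Rpsa from 124 and 17.8 to 4830.0. The splicing gene Cdc5l stood at 19.9 in G1 zygotes and 5390.1 in 2-cell embryos. Mos, Gdf9, Plat and Nlrp5, by contrast, were at 44.6, 392, 152 and 859.9 in 2-cell embryos. Idua went from a level of 1848 in eggs to 10.1.

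Among the genes that rose, 17 of 194 (8.76%) had a level under 10 in 2-cell embryos, near the 7.83% of all genes. They were named after their values were seen. Tbc1d7, a subunit of the TSC complex, had levels of 37.0, 304 and 494 in the first stages and under 1 in 2-cell embryos. Spry1, an inhibitor of receptor tyrosine kinase signalling, went from a level of 84.8 to 375 and 417, then to under 1. Amn1 had levels of 164, 757, 2249 and 1.29. The zinc finger genes Zbtb32, Zfp414 and Zfp709 had 219, 271 and 270.5 in G1 zygotes. In 2-cell embryos Zbtb32 and Zfp414 were under 1 and Zfp709 was at 1.29. In each of these 6 genes the level was highest in G2 zygotes.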

How the data were processed

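Poly(A) RNA was measured by Smart-seq2 in batches of eggs and embryos, and this account uses the C57BL/6J samples: MII eggs, G1 zygotes, G2 zygotes and 2-cell embryos, 3 of each. Per the submitters' processing notes, the authors worked on mm10 with kallisto, TopHat, Picard, bcl2fastq and DESeq2; no note ties a tool to a value. DESeq2 in version 1.18.1 made the authors' comparison tables, by their file names. The columns deposited, per the file headers, were for each gene the mean normalized count (a signal, not whole numbers), log2 fold change and SE, the shrunken log2 fold change, Wald score, p-value and adjusted p. The tables hold no values per sample, so depth is unknown, intervals per sample cannot be given, and no new test per sample was run. Tables of the F1 hybrid were not used.

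A gene was called at an authors' adjusted p under 0.05. Of 24411 symbols, 6677 had a mean of 0 and no fold change, 1834 had a fold change but no p, 2349 had a p but no adjusted p, and 13551 were tested; 8637 had a mean of at least 100, of which 8300 were tested. Symbols of mitochondrially encoded genes are not among them. Stage levels were computed from the mean and the 3 consecutive fold changes, with equal weight for each stage. The authors' normalization fixes no absolute amount of RNA per embryo, and every change is relative to it.

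Lengths, GC content and 3' UTRs were read from each gene's longest coding transcript in GENCODE M21 with a 3' UTR of at least 50 nt, matched by symbol for 7509 of 8300 genes, 169 of 194 that rose and 111 of 123 that fell. The 37 gene lists and the members were chosen with earlier results of these data known. Named genes were, among called genes with a mean of at least 100, a level of at least 10 in both stages and no predicted name, the 15 highest and 15 lowest log2 fold changes; the 10 smallest adjusted p in each direction; up to 4 called members per list; and 40 fixed genes. Genes named after their values were seen are marked. A few items that these rules select are not reported here. No set test was run. Alternatives were stricter thresholds, other adjustments, recentring, a larger SE, and leaving out predicted genes. The calculation of levels and adjusted p-values was tested on simulated data. Software was Python 3.11.15 with pandas 2.3.3, numpy 2.4.6, matplotlib 3.10.9 and scipy 1.17.1.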

Additional observations from a re-analysis of the deposited data

How the results depend on the processing

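The 220 genes that rose and 152 that fell became 149 and 100 at an adjusted p under 0.01, and 76 and 57 under Bonferroni adjustment over every gene with a p. With each SE raised 1.5 times, 42 and 33 were left. Requiring a level of at least 10 in both stages left 175 and 91. The other alternatives kept both counts within 1.5 times: Benjamini-Hochberg adjustment over every gene with a p (207 and 145) or over genes with a mean of at least 100 (208 and 144), a mean of at least 100 (194 and 123), an absolute log2 fold change of at least 1 (211 and 141), and leaving out predicted genes (199 and 145). Recentring on the median of the 2797 genes with a mean of at least 1000, which was -0.12, gave 273 and 133; all 220 that rose and 133 of the 152 that fell were among them, and the medians of 10 of the 37 lists changed sign. Of the 126 named genes with an adjusted p, 5 were no longer called after recentring, 44 under Bonferroni adjustment and 62 with the larger SE, and 2 (Myl6 and Spink2) under Benjamini-Hochberg adjustment over every gene with a p. Of these named genes 97 were called, and 0 of the 97 changed direction; 1 that was not called, Npm2, went from -0.12 to 0.00054 on recentring. The shrunken fold change moved by more than the SE in Cct6a, Meig1 and Rab27b. The share of genes with a cytoplasmic polyadenylation element among those that rose was 11.2% in the last 100 bases and 11.8% in the shortest coding transcript, against 21.1% and 23.7% of all. No paired analysis was possible because the tables carry no values per sample, and leaving out each replicate in turn was not run for the same reason.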

Other observations

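Of the 8637 genes with a mean of at least 100, 337 (3.90%) had a fold change but no p in the authors' deposited table, and 24 of them were on the gene lists. Their median log2 fold change was -0.14, and 29 had an absolute value of at least 2. Cpeb1 was the gene among the 40 fixed ones in this position.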
